A study of Mus musculus with 2 samples.

Results

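The 8 keratins Krt8, Krt18, Krt19, Krt7, Krt5, Krt14, Krt15 and Krt17 were followed through the epithelium of control and irradiated (IR) mouse parotid gland. They were chosen by name, as genes that mark layers and ducts of salivary epithelium, and they are 8 of the 48825 genes counted and 8 of the 55 genes named as a numbered keratin. Both groups were wild-type (WT) female C3H mice. The IR group received 6 Gy a day to the head and neck on 5 days, 30 Gy in total, at 6 to 10 weeks of age, and its glands were taken 10 months later. The control group was not irradiated, and both groups were about 1 year old when glands were taken. Each group is 1 single-cell RNA-seq library that pooled the dissociated glands of 2 mice, so neither group has a replicate, no test between them was possible, and every interval below is a 95% interval that covers counting error only.

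Keratins are the intermediate filament proteins of epithelial cells. A filament is built from pairs of a type II keratin (Krt8, Krt7 and Krt5 here) and a type I keratin (Krt18, Krt19, Krt14, Krt15 and Krt17), so cells express them in partner sets. Krt8 with Krt18 is the pair of simple, single-layered epithelium, including secretory acini. Krt7 and Krt19 are added in duct epithelium. Krt5 with Krt14 is the pair of basal layers and, with Krt17 and Krt15, marks basal duct cells and myoepithelial cells (MECs), the contractile cells wrapped around acini and ducts.

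In the mm10 genome (build GRCm38) the 3 type II genes lie on chromosome 15 with Krt18, and the other 4 type I genes on chromosome 11. Krt8 (chr15:101996698-102004482, minus strand) and Krt18 (chr15:102028180-102032027, plus strand) start 23698 bases apart and are transcribed away from each other. Krt7 is at chr15:101411043-101430313 and Krt5 at chr15:101707070-101712898. On chromosome 11 the genes are all on the minus strand, with Krt15 at chr11:100131758-100135928, Krt19 at chr11:100140810-100148665, Krt14 at chr11:100203162-100207548 and Krt17 at chr11:100256217-100261029, the last pair 48669 bases apart. The sequence before a RefSeq start of both partner pairs is printed here, since these pairs carry most of the results, each 5′ to 3′ on the strand of its gene and cut to the bases that are in no annotated exon (RefSeq sequence, build GRCm38.p6). Capitals mark the single match found to any of 5 motifs searched on both strands, an ETS motif (CCGGAA) in the Krt14 window, 211 to 206 bases before the start that the RefSeq sequence table uses. For Krt14 that start is an internal one: in GENCODE M21 the full-length transcript begins at chr11:100207548, so the Krt14 window lies inside the gene, between annotated exons, and is not the sequence upstream of the full-length transcript.
Krt8 (chr15:102004483-102004592, minus strand): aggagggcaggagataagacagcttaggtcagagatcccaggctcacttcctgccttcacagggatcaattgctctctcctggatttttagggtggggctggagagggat
Krt18 (chr15:102027966-102028179, plus strand): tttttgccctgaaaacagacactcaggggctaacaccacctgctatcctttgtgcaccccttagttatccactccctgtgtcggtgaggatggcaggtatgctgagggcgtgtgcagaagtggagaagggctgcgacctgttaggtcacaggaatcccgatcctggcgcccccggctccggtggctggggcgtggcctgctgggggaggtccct
Krt14 (chr11:100206031-100206280, minus strand): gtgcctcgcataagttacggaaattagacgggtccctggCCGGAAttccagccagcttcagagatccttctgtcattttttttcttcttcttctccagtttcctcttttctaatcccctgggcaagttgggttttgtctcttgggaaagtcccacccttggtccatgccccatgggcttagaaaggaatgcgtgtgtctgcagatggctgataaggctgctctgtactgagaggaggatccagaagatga
Krt5 (chr15:101712906-101713155, minus strand): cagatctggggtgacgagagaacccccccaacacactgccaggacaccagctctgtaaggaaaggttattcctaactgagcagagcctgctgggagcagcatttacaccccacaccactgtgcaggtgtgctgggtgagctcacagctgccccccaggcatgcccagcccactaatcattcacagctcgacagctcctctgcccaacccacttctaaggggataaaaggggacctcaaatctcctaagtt

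The CCGGAA letters stood in 12.0% of the 32851 RefSeq windows of 250 bases before a start, and in 1 of the 5 keratin windows that could be read, the 4 above and 39 bases of Krt7. The other motifs were a TATA box (TATAAA, in 12.4% of all windows), a GC box (GGGCGG, 32.7%), a CCAAT box (CCAAT, 33.8%) and an AP-1 motif (TGANTCA, 6.75%), and none of the keratin windows held one of these. A match is a description of the letters, and the Krt8 and Krt18 windows are shorter than the windows they were set beside.

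The control library held 5550 barcodes and 22707876 UMIs (unique molecular identifiers, tags that count single RNA molecules), and the IR library 7793 barcodes and 23890757 UMIs. After the filters of the study's methods (at least 200 genes, at most 5% mitochondrial UMIs), 3378 control cells and 5286 IR cells were left, of which 864 and 873 were epithelial. Cells were grouped without any keratin gene, so that no keratin level was used to form a class, and 12 barcodes occurred in both libraries, 3 of them as cells kept in both, and leaving these out moved no ratio past its counting interval. The acinar-like class held 384 control and 384 IR cells, the Etv1+ class 244 and 237, the intercalated duct-like (ID-like) class 129 and 146, the striated duct-like (SD-like) class 89 and 77, and a MEC-like group 18 and 29. All 13 acinar, 8 Etv1+ and 6 intercalated duct markers, 5 of 6 striated duct markers and 7 of 8 MEC markers were at least 2-fold higher in their class than in other cells. Some of these markers were also used to choose or name the classes, so these counts are not independent support for the names. Within the Etv1+ class, subsets E2, E3 and E4 held more acinar than Etv1+ markers among their 10 leading genes. The main Krt8 and Krt18 comparisons of this class are therefore also given by subset. Its shares of cells, Krt7 levels and gene lists are given for the whole class only. Levels are UMIs per 1000000 UMIs of a class (CPM). A few abundant genes, mostly secretory, take most UMIs of acinar-like, Etv1+ and ID-like cells. Each comparison was therefore also made on CPM without 74 abundant secretory, mitochondrial and hemoglobin genes. The share that these genes take differs between classes and, in SD-like cells, between libraries. Outside them lie 48083 of the 78835 UMIs of control SD-like cells but 48408 of the 140090 UMIs of IR SD-like cells. Most UMIs of MEC-like cells also lie outside them.

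Krt8 and Krt18, the simple epithelial pair, supplied nearly all UMIs of the 8 keratins in acinar-like, Etv1+ and ID-like cells, and most in SD-like cells. They made up 99.35% of the UMIs of the 8 keratins in control acinar-like cells and 99.76% in IR acinar-like cells, 99.78% and 99.93% in Etv1+ cells, and 95.56% and 96.37% in ID-like cells. In SD-like cells they gave 79.03% and 85.44%, with most of the remainder from Krt7. MEC-like cells stood apart with 20.67% (control) and 44.28% (IR), the rest being mainly Krt17 and Krt14. Over all epithelial cells the 8 keratins held 24965 of 26012 keratin UMIs (95.97%), and 33 of the 55 keratin genes had no UMI there.

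**Figure D1:**
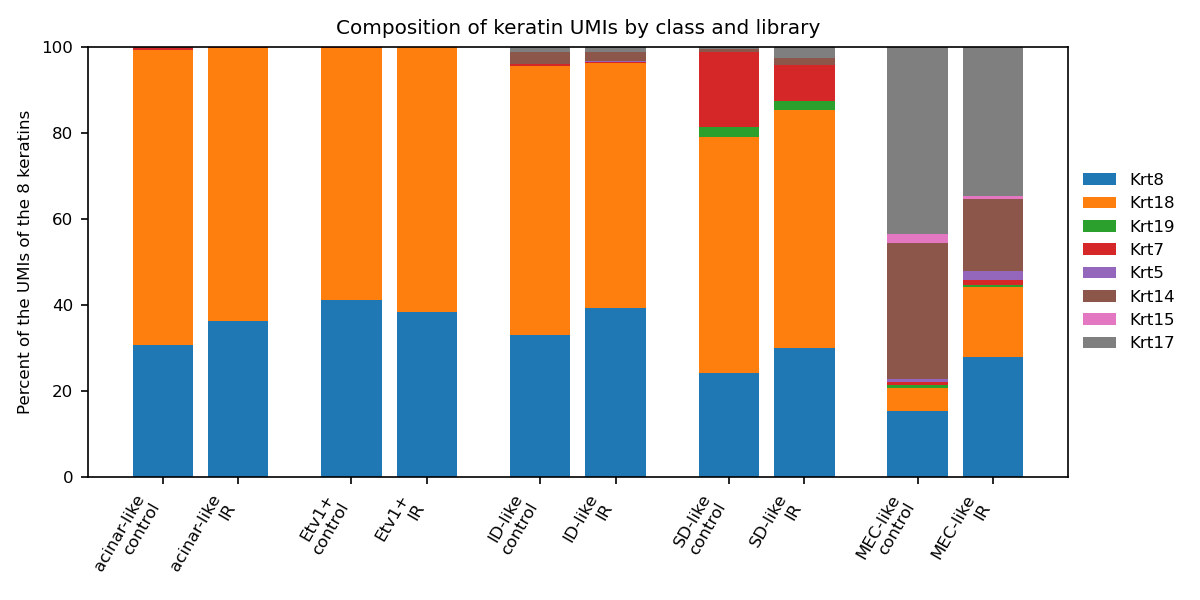
Percent of the UMIs of the 8 keratins (vertical axis) given by each keratin (colours) in each epithelial class of the control and IR libraries. Krt8 and Krt18 fill over 95% of each acinar-like, Etv1+ and ID-like bar, and Krt7 adds to the SD-like bars. Krt17 and Krt14 dominate the control MEC-like bar. In the IR MEC-like bar Krt17 (34.53%) is followed by Krt8 (27.97%) and Krt14 (16.74%).

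Krt8, the type II partner, had its lowest epithelial level on CPM over all genes in acinar-like cells, at 173 CPM in the control and 275.9 CPM in the IR library. Etv1+ cells held 388.4 and 554.8 CPM, ID-like cells 689.6 and 1458 CPM, SD-like cells 1142 and 678.1 CPM, and MEC-like cells 936.9 and 1770 CPM. Control levels thus ran from SD-like and MEC-like cells, whose interval of the ratio held 1 (1.22, 0.862 to 1.74), through ID-like and Etv1+ to acinar-like cells, with each later neighbour apart beyond counting error. The step from MEC-like to ID-like cells rested on single cells. Without the highest cell of each class, control MEC-like cells held 606.5 CPM (412.1 to 860.8) and ID-like cells 518.8 CPM (479.3 to 560.7), with overlapping intervals. B-cells, which should lack keratins, gave 39.6 CPM in the control and 58.36 CPM in the IR library, which is read here as the background that free RNA gives in droplets. The control acinar-like level was 4.37 times (3.49 to 5.51) that background on CPM over all genes. This factor depends on the scale and does not give the part of acinar-like Krt8 that was background. Just 387014 of the 3011708 UMIs of control acinar-like cells lay outside the abundant genes, and on that scale their Krt8 stood at 1346 CPM. By count, 384 control acinar-like cells held 521 Krt8 UMIs and 837 control B-cells held 92.

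Krt18, the type I partner, was lower in acinar-like (385.8 CPM control, 480.5 CPM IR) than in Etv1+ cells (554.2 and 891.6 CPM). Duct classes were higher still, with 1298 and 2117 CPM in ID-like cells and 2588 and 1249 CPM in SD-like cells. MEC-like cells held 323.6 CPM on 19 UMIs in the control and 1032 CPM on 77 UMIs in the IR library. B-cells had 70.17 and 86.82 CPM. The order of the classes depended on the scale: on CPM without abundant genes, ID-like cells led both libraries for both genes, at 2914 (control) and 6191 (IR) CPM of Krt8 and 5488 and 8988 CPM of Krt18, and control SD-like cells had 1872 and 4243 CPM. On that scale the lowest control level of Krt8 was that of MEC-like cells (1261 CPM), whose interval against acinar-like cells (1346 CPM) held 1. The ID-like levels rested largely on subset I4, with 23 cells in each library. It held 766 of the 880 control and 1132 of the 1959 IR Krt8 UMIs of the class. For Krt18 it held 1411 of 1657 and 1743 of 2844.

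**Figure D2:**
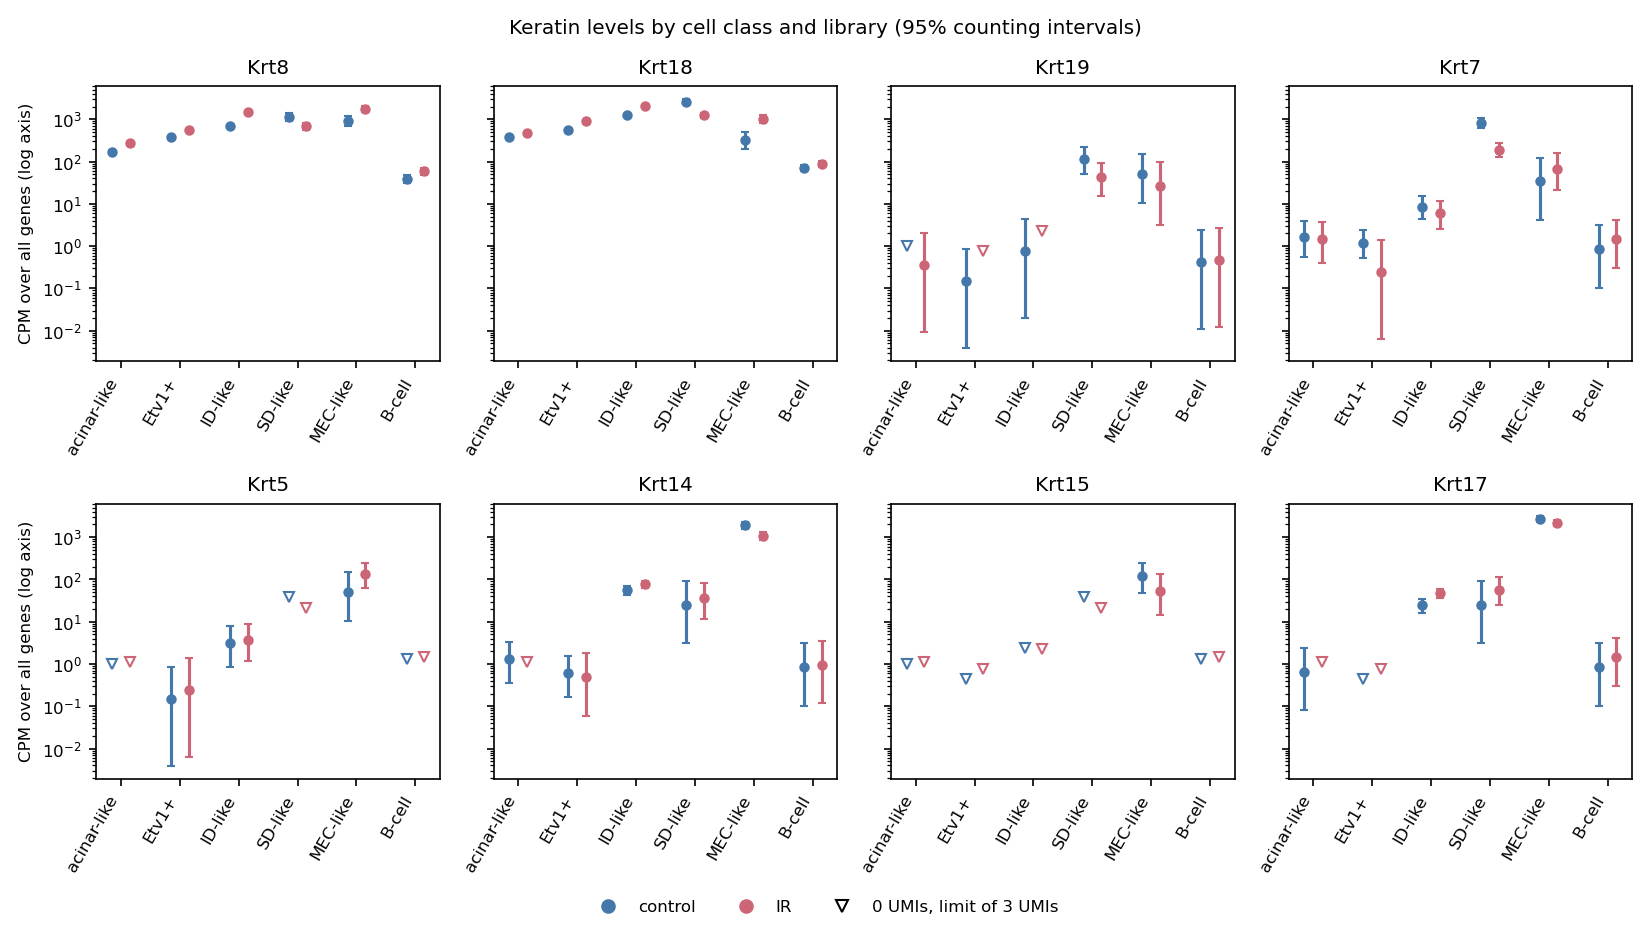
CPM over all genes (log axis) of each keratin in the 5 epithelial classes and in B-cells, for the control (blue) and IR (red) library, with 95% counting intervals; open triangles mark the limit that 3 UMIs would give where none were counted. Krt8 and Krt18 lie above the B-cell level in each epithelial class, while Krt7 stands out in SD-like cells (824.5 CPM in the control) and Krt14 and Krt17 in MEC-like cells (1925 and 2657 CPM).

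Compared with acinar-like cells of the control library, Krt8 was 2.25-fold higher (2.04 to 2.47) and Krt18 1.44-fold higher (1.34 to 1.54) in Etv1+ cells. Of the 2 keratins with at least 25 UMIs in both classes together, 1 was thus at least 2-fold higher, where 41.0% of all 6499 genes that reached 25 UMIs were at least 2-fold higher and 1.11% at least 2-fold lower. This call did not hold on the other scale. Without the abundant genes Krt8 was 1.63-fold higher (1.48 to 1.79) and Krt18 stood at 1.04 (0.975 to 1.11), so 0 of 2 passed, against 28.3% of genes higher and 2.94% lower. The subset values that follow are on CPM over all genes, and on that scale the subsets spread to both sides of the acinar-like level. Krt8 ranged from 13.4-fold higher in E1 through 3.81-fold in E4, 2.93-fold in E5 and 1.795-fold in E2 to 0.791 (0.670 to 0.931) in E3, and Krt18 in E3 was at 0.629 (0.557 to 0.708). E2 and E4, 2 of the subsets with acinar leading genes, held 1004 and 1060 of the 2563 control Krt8 UMIs, so the class value rested largely on them.

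ID-like cells had 4 of 4 such keratins at least 2-fold higher than acinar-like cells (Krt8, Krt18, Krt14 and Krt17), against 44.4% of genes higher and 1.01% lower. Without abundant genes 3 of 4 were, with Krt18 at 1.83 (1.695 to 1.97), against 20.7% higher and 6.96% lower. In SD-like cells 3 of 3 were at least 2-fold higher (Krt8, Krt18 and Krt7), against 75.0% higher and 7.67% lower. Without abundant genes only Krt7 of these 3 was, with Krt8 at 1.39 (1.099 to 1.74) and Krt18 at 1.41 (1.21 to 1.64), against 19.2% higher and 29.2% lower. These counts cover only keratins with enough UMIs over both classes, and not all 8. Krt14 and Krt17 entered mainly through ID-like cells, with 4 and 2 UMIs in control acinar-like cells. Krt7 entered mainly through SD-like cells, with 5 UMIs in control acinar-like cells. The filter can thus favour the upward calls of Krt14, Krt17 and Krt7, as it can over all genes. Krt8 and Krt18 had 521 and 1162 UMIs in control acinar-like cells.

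A ratio of both partners in the same cells does not depend on the scale. Its value also carries how well each RNA is tagged, so only its differences between classes are described. Control acinar-like cells had 0.448 Krt8 UMIs per Krt18 UMI (521 and 1162 UMIs) and control Etv1+ cells 0.701 (2563 and 3657 UMIs), a ratio 1.56 times higher (1.39 to 1.75). In the IR library acinar-like cells had 0.574 (758 and 1320 UMIs) and Etv1+ cells 0.622 (2222 and 3571 UMIs), 1.08 times higher (0.977 to 1.20). The classes were thus apart in the control and not separable by counting in the IR library, with acinar-like cells 1.28 times higher (1.12 to 1.47) and Etv1+ cells 0.888 times (0.825 to 0.955) in IR over control. By subset, the control ratio lay above that of acinar-like cells in each of E1 to E5, by 1.26 (1.03 to 1.54) in E3 to 1.75 (1.42 to 2.15) in E1, and in the IR library the intervals of E1 to E4 held 1 while E5 was 1.79 times higher (1.35 to 2.37). ID-like cells had 0.531 and 0.689, SD-like cells 0.441 and 0.543, and MEC-like cells, alone among the 5 classes, more Krt8 than Krt18 (2.90 in the control, 1.71 in IR).

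Cells with a UMI of both partners were common where depth allowed. Of 384 control acinar-like cells 164 (42.7%, 37.7 to 47.8) and of 384 IR acinar-like cells 199 (51.8%, 46.7 to 56.9) had both, and of Etv1+ cells 195 of 244 (79.9%) and 179 of 237 (75.5%). Depth differed between the libraries in Etv1+ cells, with a median of 19682.5 UMIs in the control and 4848 in IR, against 5256.5 and 5406.5 in acinar-like cells, so the 2 Etv1+ shares are not on one depth. B-cells, with medians of 2539 and 2174.5 UMIs, had both in 2.03% (control) and 2.40% (IR). With each cell thinned to 200 UMIs outside the abundant genes, no cell of these classes being shallower, Krt8 was found in 22.7% of control and 27.9% of IR acinar-like cells, 37.3% and 42.6% of Etv1+ cells, and 26.4% and 59.6% of ID-like cells. At that depth control and IR B-cells showed it in 0.836% and 1.20%.

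In acinar-like cells the IR library held more Krt8, with a ratio of IR over control of 1.60 (1.42 to 1.79), and Krt18 followed at 1.25 (1.15 to 1.35). The median gene in these cells had a log2 ratio of 0.34 on the same scale, and relative to it Krt8 was 1.26-fold higher while Krt18 stood at 0.985. On CPM without abundant genes the ratios were 1.31 (1.17 to 1.47) for Krt8 and 1.02 (0.944 to 1.11) for Krt18. The background moved the same way: in B-cells the ratio was 1.47 (1.11 to 1.95) for Krt8, from 39.6 to 58.36 CPM, and 1.24 (0.996 to 1.54) for Krt18, and its part in the epithelial ratios was not tested. Neither of the 2 keratins passed 2-fold, against 9.70% of 3784 genes higher and 0.899% lower. By subset, numbered A1 to A6, Krt8 was higher in IR in A1 (1.78, 1.498 to 2.12), A3 (1.89, 1.44 to 2.48) and A5 (1.52, 1.14 to 2.05), while the intervals of A2, A4 and A6 held 1. Without abundant genes A1 (1.56, 1.32 to 1.86) and A3 (1.61, 1.23 to 2.12) stayed higher and A5 was at 1.03 (0.768 to 1.38). Krt18 went both ways, at 1.398 (1.24 to 1.58) in A1 and 1.78 (1.07 to 3.06) in A6 but 0.643 (0.474 to 0.870) in A4, each with the interval on the same side of 1 without abundant genes. In A3 (1.30, 1.095 to 1.55) and A5 (1.24, 1.009 to 1.53) it was higher over all genes, and both intervals held 1 without abundant genes.

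Etv1+ cells had a ratio of IR over control of 1.43 (1.35 to 1.51) for Krt8 and 1.61 (1.54 to 1.69) for Krt18, or 1.21 and 1.36 relative to the median gene (log2 ratio 0.24). None of these 2 keratins passed 2-fold, against 5.27% of 7472 genes higher and 1.04% lower. The subsets differed in direction. Krt8 was lower in IR in E1, the shallow subset with a median of 1027.5 UMIs (2320 CPM control, 1584 CPM IR, ratio 0.683, 0.559 to 0.833). It was near equal in E3 (136.9 and 132.5 CPM, ratio 0.968, 0.773 to 1.21) and higher in E2 (1.65, 1.51 to 1.80), E4 (1.44, 1.31 to 1.57) and E5 (1.62, 1.21 to 2.19), but without abundant genes the interval of E4 held 1 (1.09, 0.997 to 1.199). Krt18 was higher in IR in E2 (1.88, 1.75 to 2.02) and E4 (1.64, 1.52 to 1.77) on both scales, while the intervals of E1 (0.891), E3 (1.101) and E5 (1.11) held 1. The class ratios of Etv1+ cells were thus not those of each subset. Levels also ran widely within the class, from 132.5 CPM of Krt8 in IR E3 to 2320 CPM in control E1.

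ID-like cells showed the highest ratio of Krt8, 2.12 (1.95 to 2.29), with Krt18 at 1.63 (1.53 to 1.73). Both scales gave this result, at 2.12 and 1.64 without abundant genes, and the median gene stood at a log2 ratio of 0.09. Of 4 keratins with at least 25 UMIs, 1 (Krt8) was at least 2-fold higher, against 4.52% of 3898 genes higher and 3.69% lower. The make-up of the class differed between libraries, since subset I2 held 6 control and 64 IR cells and I5 26 and 1. Within subsets that both libraries filled, Krt8 was higher in IR in I1 (3.51, 1.89 to 6.80), I3 (2.998, 2.02 to 4.51) and I4 (2.08, 1.90 to 2.28). A single IR cell of I4 held 383 Krt8 and 544 Krt18 UMIs, and a single control cell held 243 and 424. Without the highest cell of each library the Krt8 levels were 518.8 CPM in the control and 1303 CPM in IR (ratio 2.51, 2.29 to 2.76).

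In SD-like cells the direction depended on the scale. Over all genes Krt8 had an IR over control ratio of 0.594 (0.440 to 0.802) and Krt18 of 0.483 (0.392 to 0.594), but the median gene was at a log2 ratio of -0.88, and without abundant genes the ratios were 1.05 (0.777 to 1.42) and 0.852 (0.692 to 1.05). Of 3 keratins 2 (Krt18 and Krt7) were at least 2-fold lower, against 45.7% of 665 genes lower and 4.96% higher. Without abundant genes 1 (Krt7) was, against 17.8% of genes lower and 9.68% higher. Subset composition also differed, with 66 control and 28 IR cells in S1, 3 and 48 in S2 and 20 and 1 in S3. Within S1, Krt8 was at 1377 CPM in the control and 1481 CPM in IR (ratio 1.07, 0.716 to 1.59), and Krt18 was higher in IR (2869 and 4443 CPM, ratio 1.55, 1.21 to 1.97).

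**Figure D3:**
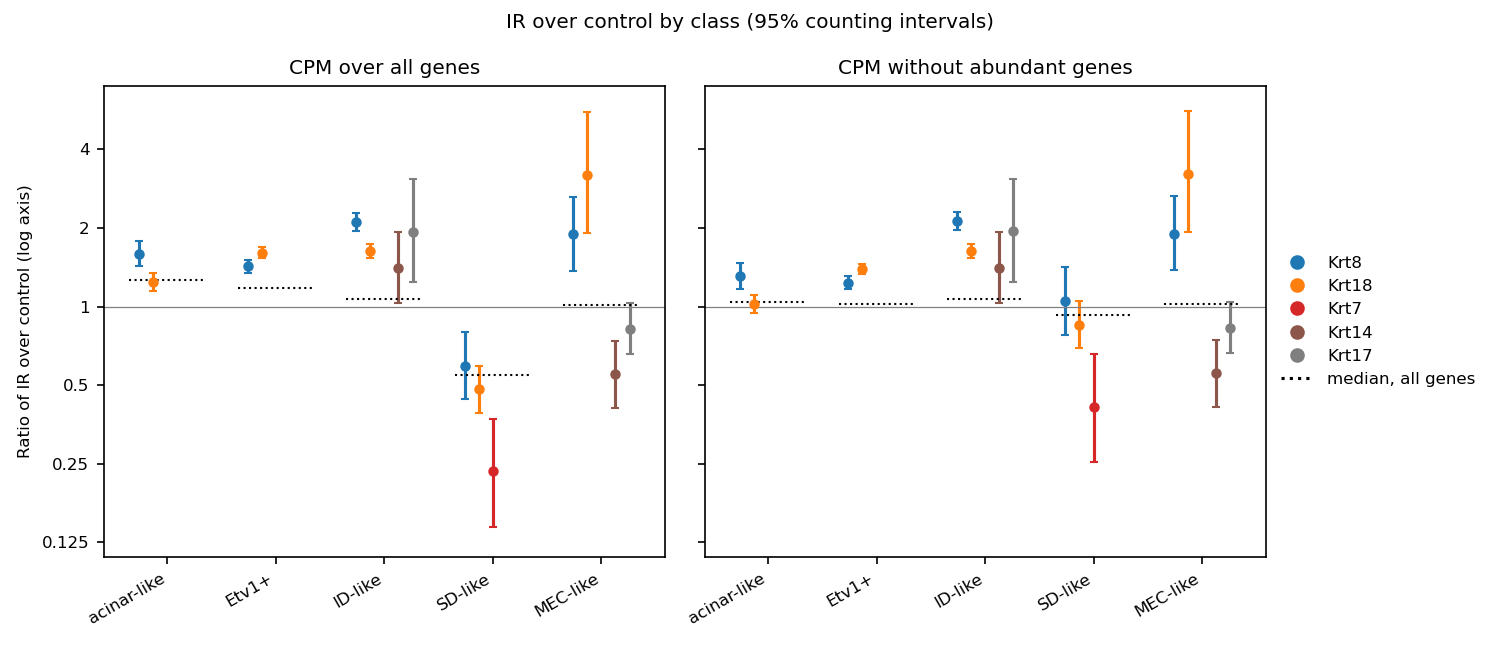
Ratio of IR over control (log axis) for each keratin with at least 25 UMIs in a class, on CPM over all genes (left) and on CPM without abundant genes (right), with 95% counting intervals; dotted lines give the median gene of each class. Krt8 lies above the median line in each class on both scales, as in acinar-like cells (1.60 on the left, 1.31 on the right). In SD-like cells (0.594 and 1.05) its interval holds that line (0.545 and 0.931), and the SD-like points shift upward on the right.

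Krt7, the type II keratin of duct epithelium, was mostly a gene of SD-like cells. They held 824.5 CPM in the control (65 UMIs in 36 of 89 cells) and 192.7 CPM in the IR library (27 UMIs in 18 of 77 cells), which in the control was 347 times (217 to 570) the level of the other epithelial cells together and 98.9 times without abundant genes. ID-like cells held 8.62 and 5.96 CPM. Acinar-like (1.66 and 1.46 CPM) and Etv1+ cells (1.21 and 0.2497 CPM) were near the level of B-cells (0.861 and 1.45 CPM) on this scale. That likeness depended on the scale: without abundant genes control acinar-like cells had 12.92 CPM (4.195 to 30.2) on 5 UMIs and control Etv1+ cells 6.85 CPM (2.96 to 13.5) on 8 UMIs, against 0.972 CPM (0.118 to 3.51) in B-cells. No cell held more than 7 Krt7 UMIs, so the class value did not rest on single cells.

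The IR over control ratio of Krt7 in SD-like cells was 0.234 (0.143 to 0.371), and 0.413 (0.253 to 0.656) without abundant genes. Relative to the median gene it was 0.429 on the first scale and 0.443 on the second. Within subset S1 the levels were 934.5 CPM (57 UMIs, 66 cells) and 721.5 CPM (19 UMIs, 28 cells), with a ratio of 0.772 (0.434 to 1.32) whose interval held 1. S2, with 48 IR and 3 control cells, had 71.3 CPM of Krt7 on 8 UMIs in those 48 cells, and its leading genes included the intercalated duct genes Dcpp2 and Dcpp3 beside Klk1 and Crisp3. Krt7 level and subset thus moved together, and their parts in the class ratio cannot be told apart here.

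Krt19, the small type I keratin of duct cells, was thinly counted, with 14 UMIs in control and 9 in IR epithelial cells and a ratio of 0.853 (0.326 to 2.12). SD-like cells held 9 and 6 of these UMIs, at 114.2 CPM (52.2 to 217) and 42.8 CPM (15.7 to 93.2). MEC-like cells held 3 and 2, each from 1 cell, at 51.1 and 26.8 CPM, and in both libraries the interval of SD-like over MEC-like cells held 1. Acinar-like, Etv1+ and ID-like cells had 1 UMI or none per library, as did B-cells. Of all Krt19 UMIs in kept cells, 14 of 27 in the control and 9 of 15 in IR were epithelial. The control stromal group held 9, with 5 of them in 1 cell. A difference between conditions was not detectable at this depth.

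**Figure D4:**
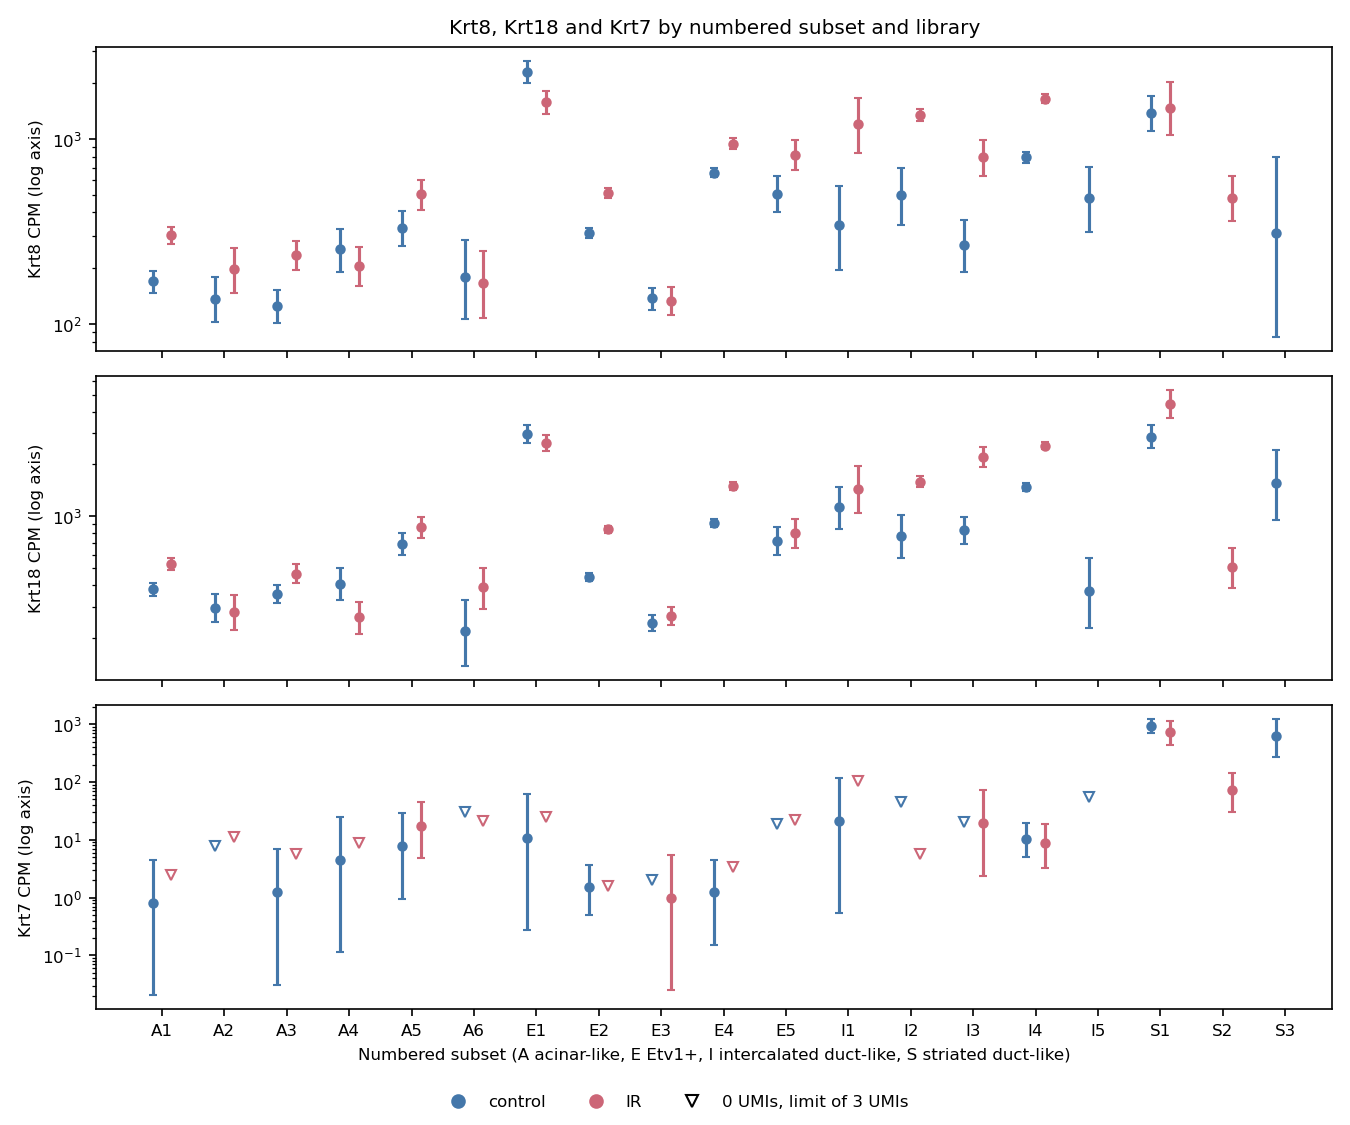
CPM (log axis) of Krt8, Krt18 and Krt7 in each numbered subset of the acinar-like (A), Etv1+ (E), ID-like (I) and SD-like (S) classes, control in blue and IR in red, with 95% counting intervals and open triangles for the limit of 3 UMIs; a subset with fewer than 5 cells in a library is not drawn for it. Krt7 is high in S1 of both libraries (934.5 and 721.5 CPM) and lower in the IR cells of S2 (71.3 CPM), and E1 has the highest Krt8 of the Etv1+ subsets.

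Krt14, the type I keratin of basal and myoepithelial cells, was highest in the MEC-like group, at 1925 CPM (113 UMIs) in the control and 1059 CPM (79 UMIs) in the IR library. In the control that was 261 times (194 to 351) the level of all other epithelial cells and 61.0 times without abundant genes. These UMIs came from few cells: 3 of the 18 control cells held 59, 38 and 16, and 4 of the 29 IR cells held 34, 32, 7 and 6. Without the cell with the most Krt14 the control level was 1014 CPM (762 to 1323) and the IR level 642 CPM (468 to 859).

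Krt17, a type I keratin that accompanies Krt14 in myoepithelial and stressed epithelium, followed the same cells. The MEC-like group held 2657 CPM in the control (156 UMIs) and 2185 CPM in the IR library (163 UMIs), and 1 IR cell gave 111 of the latter. Of the 4 control cells with Krt17, which held 68, 48, 18 and 22 UMIs, 3 also had Krt14, and the fourth, with 22, had no Krt14 UMI and 7 of Krt15. All 4 IR cells with Krt17 also had Krt14. The control cells with both had 2 or 3 UMIs of Trp63, the basal regulator p63, and 4, 72 and 70 UMIs of Acta2, the smooth muscle actin of MECs. The IR cells with both, in order of their Krt14, had 0, 0, 1 and 2 UMIs of Trp63 and 7, 0, 47 and 16 of Acta2. The IR cell without Acta2, which held 32 Krt14 and 25 Krt17 UMIs, also had no UMI of Trp63 or of Myh11, the smooth muscle myosin, so these MEC genes went against its label.

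The IR over control ratios in the MEC-like group were 0.550 (0.407 to 0.740) for Krt14, 0.822 (0.656 to 1.03) for Krt17, 1.89 (1.37 to 2.64) for Krt8 and 3.19 (1.91 to 5.58) for Krt18. Of these 4 keratins, 1 (Krt18) passed 2-fold, upward, against 10.1% of 594 genes higher and 11.1% lower. A single IR cell held 55 of the 77 Krt18 and 61 of the 132 Krt8 UMIs, together with 1134 UMIs of the acinar gene Amy1, and without the highest cell of each library the ratio of Krt18 was 1.58 (0.720 to 3.75) and that of Krt17 0.449 (0.312 to 0.639). The group was shallow, with a median of 877 UMIs, and its leading genes included Cxcl13, Csn3 and Clu beside Acta2, Tpm2 and Igfbp2, so its ratios describe the few cells that held these keratins.

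ID-like cells formed the other place with Krt14, at 55.6 CPM (71 UMIs in 23 of 129 cells) in the control and 78.2 CPM (105 UMIs in 27 of 146 cells) in the IR library, against 0.861 and 0.965 CPM in B-cells. Krt17 stood at 24.3 CPM (31 UMIs in 8 cells) and 46.9 CPM (63 UMIs in 18 cells). Most of it lay in subset I4, the deepest with a median of 35172.5 UMIs, where 13 of 23 control cells and 12 of 23 IR cells held Krt14 (58 and 83 UMIs). The IR over control ratios of 1.40 (1.03 to 1.93) for Krt14 and 1.93 (1.24 to 3.07) for Krt17 lay below 1 under other settings, at 0.629 for Krt14 and 0.880 for Krt17 with cells of up to 10% mitochondrial UMIs, and at 0.549 for Krt14 with each cell weighted equally. Acta2, the MEC gene, was also counted in 7 of the 8 ID-like cells with the most Krt14 and Krt17 UMIs together, 4 from each library, at 1 to 29 UMIs. Dcpp1, an intercalated duct gene, had 14, 4, 13113 and 21690 UMIs in the 4 control cells. In the 4 IR cells it had 13, 27867, 5 and 7342. In the cells with 14 or fewer, this marker went against their label. Amy1 had 1679 to 6821 UMIs in those cells and 16 to 4756 in the others.

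Krt5, the type II partner of Krt14, was near the limit of detection everywhere, with 8 UMIs in control and 16 in IR epithelial cells. Cells with both Krt5 and Krt14, the pair of basal duct cells, numbered 7 of 3378 in the control (0.207%, 0.0834 to 0.427) and 3 of 5286 in the IR library (0.0568%, 0.0117 to 0.166). By class the control cells were 4 ID-like, 2 MEC-like and 1 in the stromal group, and the IR cells were 3 MEC-like. All 7 control cells with both were among just 8 that had any Krt5, whereas 3 of 7 IR cells with Krt5 (42.9%) had Krt14 and neither of the 2 in the IR ID-like class did. The stromal cell, which held 8 Krt5, 46 Krt14 and 45 Krt17 UMIs, also had 134 Acta2, 22 Myh11 and 4 Trp63 UMIs and no Col1a2 UMI, so its label went against its genes, and it also held 268 UMIs of Cd74, a gene of antigen-presenting cells. It gave each Krt14, Krt17 and Krt5 UMI counted in the stromal group of either library.

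Krt15, the type I keratin of basal stem-like layers, had 11 UMIs in all cells of both libraries, 7 in 1 control and 4 in 1 IR cell of the MEC-like group. Acinar-like, Etv1+, ID-like and SD-like cells had none, which in 384 control acinar-like cells allows a share of up to 0.781% of cells with a UMI and in 77 IR SD-like cells up to 3.90%.

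The barcodes left out for over 5% mitochondrial UMIs, 1260 control and 1858 IR barcodes, held much of the duct keratins. Krt7 had 93 UMIs there in the control and 86 in IR, against 110 and 65 in all kept cells, at 46.1 and 31.8 CPM against 5.77 and 3.19 CPM in kept cells. Krt19 had 23 and 16 UMIs, at 11.4 and 5.91 CPM against 1.42 and 0.737 CPM. Krt8 was at 397 and 383 CPM against 232 and 278 CPM. The filter on mitochondrial UMIs thus left out a larger part of the Krt7 and Krt19 UMIs than of the Krt8 UMIs. This was not particular to duct keratins. Krt5 was at 5.46 and 2.22 CPM there (11 and 6 UMIs), against 0.839 and 0.836 CPM in kept cells. The 6 IR UMIs of Krt5 came from 1 barcode. Krt17 was at 10.9 and 27.7 CPM against 12.6 and 12.2 CPM. Both Krt5 and Krt14 were found in 3 of these control barcodes and 1 of these IR barcodes.

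**Figure D5:**
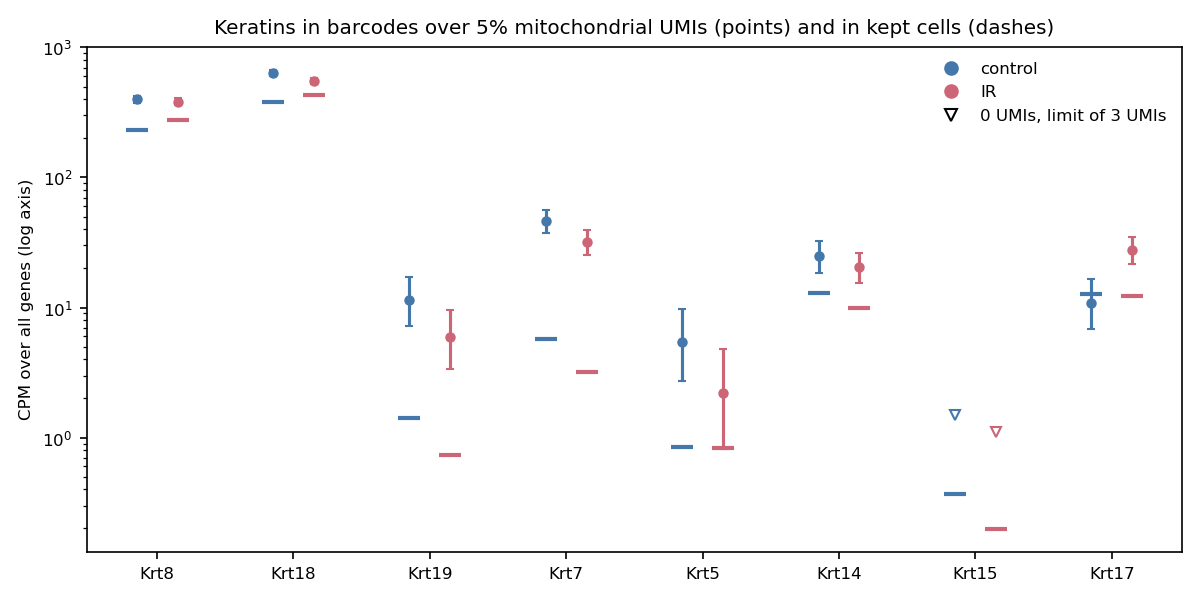
CPM over all genes (log axis) of the 8 keratins in barcodes with over 5% mitochondrial UMIs (points, 95% counting intervals) and in kept cells (dashes), control in blue and IR in red; open triangles mark the limit of 3 UMIs where none were counted. Krt7 and Krt19 lie above their dashes in both libraries (46.1 against 5.77 CPM for control Krt7).

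Genes of filaments and cell contacts were taken as 4 lists, of desmosome and cytolinker, hemidesmosome, other intermediate filament and simple epithelium genes. Of 15 desmosome and cytolinker genes, which anchor filaments at cell contacts, 9 reached 25 UMIs in Etv1+ and acinar-like control cells, and 6 were at least 2-fold higher in Etv1+ cells and 0 lower, with a median log2 ratio of 1.52 against 0.73 over all genes (5 higher, median 1.06 against 0.27, without abundant genes). Of all genes, 41.0% were at least 2-fold higher in this comparison, and 28.3% without abundant genes. Genes entered on the UMIs of both classes together. Of the 6, all but Jup (25 UMIs) fell short of 25 UMIs in acinar-like cells, where Dsp had 3 and Pkp2 2. The filter can thus favour upward calls here, as it can over all genes. Dsp, the desmosomal plaque protein that binds keratin, was 11.2 CPM in Etv1+ and 0.996 CPM in acinar-like cells, and 31.4 CPM in ID-like cells. Plec, the cytolinker plectin, stood at 18.9, 4.32 and 27.4 CPM in the same order. Among 7 hemidesmosome genes, which tie Krt5 and Krt14 filaments to the basement membrane, 3 were counted well enough and 2 (Itga6 and Itgb4) were at least 2-fold higher in Etv1+ than in acinar-like cells, on both scales, a count to be read against the same shares. Both also entered mainly through Etv1+ cells, with 14 and 2 UMIs in acinar-like cells. The other lists did not run above all genes. Of 8 simple epithelium genes 6 were counted, 2 of them higher and 0 lower, with a median log2 ratio of 0.46 against 0.73. Without abundant genes that median was -0.0003 against 0.27. Of 7 other intermediate filament genes 2 were counted. Lmna was at a ratio of 2.28 (1.66 without abundant genes) and Vim, the filament protein vimentin, at 0.427 (0.310).

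Between IR and control, few of these genes passed 2-fold in acinar-like, Etv1+ and ID-like cells, where the shares over all genes were also small. In acinar-like cells 0 of the 12 genes tested over the 4 lists passed, where 9.70% of all genes were higher and 0.899% lower. In Etv1+ cells 1 of 21 did (5.27% and 1.04% of all genes), Ocln, the tight junction protein occludin, at a ratio of 2.17, and it did not pass without abundant genes. ID-like cells had 3 of 19 (4.52% and 3.69% of all genes): the desmosome gene Pkp2 (10 control and 23 IR UMIs, ratio 2.18 on these few UMIs) and the nuclear lamin gene Lmna (139 and 293 UMIs, 2.002, 1.63 to 2.47) were higher, and the claudin gene Cldn4 was lower (137 and 49 UMIs, 0.340, 0.240 to 0.474). Dsp in ID-like cells stood at 40 and 73 UMIs, with a ratio of 1.73. In SD-like cells 0 of 4 genes passed, where 45.7% of all genes were lower and 4.96% higher. Without abundant genes 1 of these 4 was higher, against 9.68% of genes higher and 17.8% lower. It was Perp, on 8 control and 17 IR UMIs, at a ratio of 2.11 (0.863 to 5.65). In MEC-like cells 0 of 6 passed, against 10.1% of genes higher and 11.1% lower.

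Of keratins outside the 8, Krt23 had 845 epithelial UMIs, Krt10 had 119 and Krt78 had 33, and no other reached 25. Krt23, a type I keratin, was found in each class, at 25.2 and 32.0 CPM in acinar-like, 30.3 and 52.2 CPM in Etv1+, and 55.6 and 120 CPM in ID-like control and IR cells, against 2.58 and 8.20 CPM in B-cells. Across the 10 combinations of class and library, the genes whose levels ran closest to Krt18 among 4840 genes were Elf3, Acsf2 and Dcxr (Pearson r of 0.962, 0.960 and 0.938), and closest to Krt8 were Edn1, Arf3 and Fam102a (0.874, 0.872 and 0.863). Closest to Krt7 were Pkm, Ldhb and Gapdh (0.961, 0.943 and 0.935), to Krt14 Timp3, Ahnak and Gas6 (0.975, 0.968 and 0.968), and to Krt17 Timp3, Ahnak and Prnp (0.988, 0.975 and 0.972). Krt14 and Krt17 themselves had an r of 0.983 and Krt8 and Krt18 of 0.686. These points share libraries and scaling, so the values are descriptions only.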

How the data were processed

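Single-cell RNA-seq (10x Chromium, polyA RNA) was made from 1 control and 1 IR library of parotid gland, each from 2 pooled mice. The authors aligned reads to mm10 and counted UMIs with Cell Ranger 3.0.1, and the deposited values are raw counts per gene and barcode; Seurat 3 is also listed in their processing notes. How cells were told from empty droplets is not given in the sources used here. No per-sample column was left unused.

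Cells needed 200 genes or more and no more than 5% mitochondrial UMIs. Integration and clustering used Seurat 5.3.0 (R 4.3.3) with the following settings (2000 variable genes less 10 keratins, 30 components, resolution 0.3, then 20 components at 0.8 within classes). Acinar-like and Etv1+ cells were first-pass clusters chosen by CPM limits on Amy1, Etv1 and Dcpp1. Duct clusters were chosen by limits on Dcpp1, or on Klk1 and Fxyd2. A mixed set with the MEC-like cells was chosen by limits on Pecam1 or Col1a2. Within these, duct and MEC-like subclusters took the name of the marker list with most of the 10 leading genes, with no minimum. Only B-cells and T-cells needed at least 3 markers, and no marker was a keratin. Scrublet (scanpy 1.11.5) called 33 of the cells (0.381%), which is too few to rely on, so doublets were not removed. For each class and library, summed counts were converted to CPM, taking as total either every gene or those left without 74 abundant genes (26 named ones, mostly secretory, with mitochondrial and hemoglobin genes). Sums have exact Poisson, shares Clopper-Pearson and ratios exact conditional binomial intervals (scipy 1.17.1, numpy 2.4.6), all at 95%; a ratio of 2 ratios has a log-normal interval from the counts. A count of 0 allows up to 3 counts. Folds of 2 or 0.5 were counted where the summed UMIs of the groups compared reached 25. On simulated acinar counts 197 of 200 directions were recovered among 3784 genes, and 95.8% of intervals held the true ratio. This checks the calculation for counting error and does not cover the spread between cells, mice or libraries in the data.

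With 1 library per condition no p-value was computed. Named genes are the 8 keratins, other keratins with at least 25 epithelial UMIs, the 3 genes most like each member with at least 100 UMIs (Pearson r of log2(CPM + 10) without abundant genes, over classes and libraries with at least 20000 UMIs), genes of the 4 fixed lists, and markers. The members and lists were chosen with earlier results of these data known. The keratin-bearing single cells, the subsets named for their values and the genes counted in them were chosen after their values were seen. Gene positions and exons are from GENCODE M21, matched by identifier without version. Alternatives were the mitochondrial limit, 500 genes per cell, keratins kept in the clustering, no integration, removal of cells in the top 6% by doublet score, scaling without abundant genes and, added after seeing the data, removal of the cell with the most UMIs of the gene, equal weight per cell and removal of barcodes found in both libraries.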

Additional observations from a re-analysis of the deposited data

Results flagged for a closer look

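On CPM over all genes, IR over control ratios of Krt8 and Krt18 were above 1 in 4 classes and below 1 in SD-like cells. This difference between classes was not tested, since each condition has 1 library. For Krt8 the ratio was 1.595 in acinar-like, 1.428 in Etv1+, 2.115 in ID-like and 1.889 in MEC-like cells, against 0.594 in SD-like cells. For Krt18 it was 1.245, 1.609, 1.63 and 3.189 in the same order, against 0.4827 in SD-like cells. The SD-like values move with the scale (1.048 and 0.8521 without abundant genes) and with the make-up of the class, whose subset S1 gave 1.075 for Krt8 and 1.548 for Krt18. Krt18 in acinar-like cells was at 1.023 (0.9445 to 1.108) without abundant genes. The MEC-like Krt18 ratio rested on single cells. Without the highest cell of each library that group held 252.7 CPM in the control and 400.5 CPM in IR, with overlapping intervals. Krt14 was at 1.405 in ID-like cells and at 0.5502 in the MEC-like group, a difference that was likewise not tested. The ID-like ratio of Krt14 lay below 1 under other settings, as given above.

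Barcodes with over 5% mitochondrial UMIs, which enter no class, held Krt7 at 46.15 CPM in the control and 31.76 CPM in the IR library, above the 5.769 and 3.194 CPM of kept cells. Krt19 was at 11.41 and 5.909 CPM there, against 1.416 and 0.7372 CPM.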

How the results depend on the processing

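Over all alternatives, of the results fixed in the design 77 values stayed within their counting interval, 12 moved past it and 0 were scored as reversed. Of the other ratios 84 stayed, 30 moved and 10 reversed. A reversal could be scored only for a ratio whose main interval excluded 1. Krt19 in epithelial cells and the counts of cells with Krt5 and Krt14 could thus not be scored as reversed. On CPM without abundant genes the IR over control ratios were 1.310 (Krt8) and 1.023 (Krt18) in acinar-like cells and 1.236 and 1.392 in Etv1+ cells, Krt7 in SD-like over other epithelial cells of the control was 98.85 and Krt14 in MEC-like over other epithelial cells 60.96, and Krt8 in SD-like cells reversed to 1.048. Keratins kept in the clustering gave 1.614 for Krt8 in Etv1+ cells and 0.6888 for Krt14 in ID-like cells. Without the cells of high doublet score the Krt14 MEC-like ratio was 478.0, and without the cell with the most UMIs 180.8. With cells weighted equally it was 51.30, Krt8 in Etv1+ cells 1.163, Krt7 in SD-like cells over others 200.5 and Krt14 in ID-like cells 0.5487. Krt14 and Krt17 in ID-like cells were 0.6291 and 0.8799 at a mitochondrial limit of 10%, 0.6495 and 0.8512 with 500 genes per cell, and Krt14 was 0.7814 with no mitochondrial limit. With 500 genes per cell SD-like cells gave 1.395 for Krt8 and 1.845 for Krt18, from 19 control and 10 IR cells. The cause was not tested. No MEC-like group formed at either mitochondrial setting, with 500 genes or with no integration, so these gave no Krt14 value. No paired analysis was possible because each condition has 1 library. Leaving out a replicate was not possible for the same reason. Genes under about 25 UMIs in a class, Krt5, Krt15 and Krt19 among them, could not be compared between conditions at this depth.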
